A study of Mus musculus with 11 samples.

Results

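The hippocampus of mice at 1 m after photothrombosis with levetiracetam (PT 1 m LEV) was compared with the naive hippocampus, as 3 of the 11 libraries of the series. The PT 1 m LEV condition had 1 library from the infarcted side and 1 from the non-infarcted side, and naive had 1. A gene was counted as beyond naive when both PT 1 m LEV libraries differed from naive by a log2(CPM + 1) of at least 1, a doubling or halving of CPM + 1, in the same direction. CPM is a gene's reads scaled to the library total. Of 16057 genes compared, 70 were beyond naive: 38 were higher and 32 lower. Among the lower, 7 belonged to a list of choroid plexus genes, which is described apart. No gene met the rule for being brought to the naive level, namely at least 1 away from naive in both libraries of PT 1 m without levetiracetam and within 0.5 of naive in both with it.

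The mice were C57BL/6N males, and the series names ages of 8 to 10 and 65 to 85 weeks without saying which library came from which. Naive mice were untreated. Photothrombosis is a model of stroke in which light activates a dye in the blood and clots the vessels under the lit area: rose bengal (35 mg/kg) was given, and a circle of 3.5 mm over the left parietal region was lit with a 565 nm LED of 200 mW for 30 minutes. PT 1 m mice had this procedure alone, and PT 1 m LEV mice also drank water with levetiracetam (5 mg/mL). In the design text the course begins 1 month after PT and lasts 2 weeks, whereas these libraries are labelled 1 m after PT, so when RNA was taken relative to the course is unclear. Neither the number of animals per library, whether both sides of a condition come from the same animals, nor the side of the naive hippocampus is given. With 1 library per group and side there is no replicate, so no comparison has a test of its own, and the difference between the PT 1 m LEV libraries is the only spread within the condition.

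Levetiracetam is an anti-seizure drug that binds SV2A, a glycoprotein of the synaptic vesicle. The hippocampus holds the excitatory granule and pyramidal cells, the GABA-releasing interneurons that restrain them, and glia, and the choroid plexus of the lateral ventricle lies against it. The choroid plexus is an epithelium that secretes cerebrospinal fluid, and a dissected hippocampus can carry more or less of it. Cap analysis of gene expression (CAGE) is meant to read the capped 5′ ends of RNA, so each count below is taken as a number of transcription starts given to a gene. How much uncapped RNA was carried along in each library is not known.

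Library totals ranged from 13382623 to 22377376 reads, with 14003626 for naive, 15889269 for the infarcted and 22377376 for the non-infarcted PT 1 m LEV library. Where no read was found, up to 3 could have been missed, or 0.134 to 0.224 CPM depending on the library. Ranges in brackets after a CPM value are exact Poisson intervals at 95%; they and this floor cover counting error only. Markers of the hippocampal cell fields were present in the 3 libraries, such as Prox1 of granule cells (56.9 CPM in naive, 50.4 and 46.1 CPM with levetiracetam) and Wfs1 of CA1 pyramidal cells (116 CPM, then 102 and 109 CPM). For some genes naive and both PT 1 m libraries stood together, apart from the 8 other libraries: they were all above those 8 in 2.53% of genes and all below in 3.11%. Among the genes beyond naive this held for 3 of the 32 lower (Rny1, Mast2, Mir5125) and 4 of the 38 higher (Tpt1, Bloc1s2-ps, and H3c3 with H2ac5-ps, whose reads are the same). The labels name no batch of library preparation, and its part in these genes was not tested.

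The 38 genes higher on both sides are 0.237% of those compared, and the 32 lower are 0.199%. Without levetiracetam, the same threshold gave 1 higher gene (0.00623%) and 41 lower (0.255%). At a lower threshold of 1.5-fold of CPM + 1 on both sides, 230 genes were higher (1.43%) and 304 lower (1.89%) in PT 1 m LEV. Naive mice had neither photothrombosis nor levetiracetam, so their parts in these counts cannot be told apart. Over all genes compared, 5439 (33.9%) were above naive and 7401 (46.1%) below it in both PT 1 m LEV libraries, and these shares are the background for the list counts. Most genes stayed near naive: both PT 1 m LEV libraries were within 0.5 of it for 13571 genes (84.5%), and both PT 1 m libraries for 14574 genes (90.8%). In all 38 higher and in 26 of the 32 lower genes, the smaller of the 2 changes from naive was larger than the difference between the PT 1 m LEV libraries. The rule sets the smaller change at 1 or more, so this outcome was largely fixed by the choice of genes. Poisson intervals of naive and of each PT 1 m LEV library did not overlap for any of the 70. The genes were chosen for a large change, which favours this too, and the share over all genes was not computed. Neither count is support for the members.

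**Figure D1:**
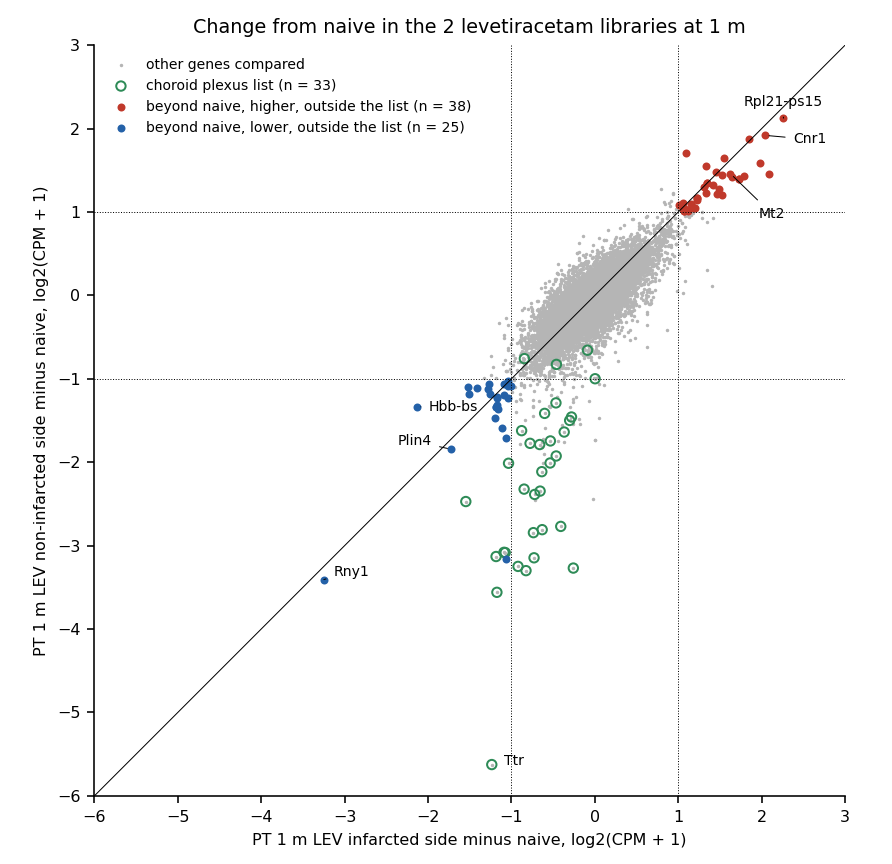
Each point is a gene, placed by its log2(CPM + 1) in the infarcted (x axis) and non-infarcted (y axis) PT 1 m LEV library minus naive; dotted lines mark the threshold of 1 and the solid line equal change. The 38 higher genes (red) and 24 of the 25 lower genes outside the choroid plexus list (blue) changed by more than the libraries differ from each other, which the threshold favours. The choroid plexus list (green circles) lies mostly under the line, lower on the non-infarcted side.

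Both PT 1 m LEV libraries were above the other 9 for 29 of the 38 higher genes, against 10% of all genes. For 33 of the 38 (86.8%) both PT 1 m libraries without levetiracetam were within 0.5 of naive, near the 90.8% of all genes. Naive was below all 10 photothrombosis libraries for 5 of the 38, against 8.3% of all genes. Naive was above all 10 photothrombosis libraries for 18 of the 32 lower genes, against 8.69% of all genes, and both PT 1 m LEV libraries were below the other 9 for 13, against 16.6%. Both PT 1 m libraries were within 0.5 of naive for 3 of the 32 lower genes. The naive library chose the genes, so these counts describe where the members lie and test nothing.

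Cnr1, the cannabinoid receptor CB1 that sits on the terminals of cholecystokinin interneurons and damps transmitter release, stood at 69.3 CPM in naive (65.05 to 73.8), 288 CPM on the infarcted side with levetiracetam (280.1 to 297) and 265 CPM on the other side (258 to 272). PT 1 m without the drug gave 97.7 and 113 CPM, and the 6 libraries at 7 d and 2 m gave 98.9 to 116 CPM. Cnr1 was therefore lowest in naive and highest in both PT 1 m LEV libraries, with the other libraries between, and it was 4.16-fold and 3.82-fold of naive. The gene lies on chromosome 4 from 33924593 to 33948831 (GRCm38). Some other interneuron genes were higher by less than the threshold, while others of the list were lower. Cck, the neuropeptide of those interneurons, was at 421 CPM in naive and 598 and 681 CPM with levetiracetam. Reln, an extracellular protein of Cajal-Retzius cells and interneurons, was at 11 CPM and then 17.9 and 19.1 CPM, and Ndnf, a marker of neurogliaform interneurons, at 12.1 CPM and then 19.1 and 22.4 CPM. Of the 20 genes in the list of interneurons and neuropeptides, Cnr1 alone was beyond naive, 10 were above and 7 below naive on both sides, and the median change was 0.12 and 0.21 (infarcted, then non-infarcted side), beside -0.05 and -0.04 over all genes.

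The metallothioneins, small cysteine-rich proteins that bind zinc and copper, were higher together. Mt2 stood at 326 CPM in naive (316 to 335), 1007 CPM (992 to 1023) and 897 CPM (885 to 909) with levetiracetam, and 371 and 300.2 CPM in PT 1 m. Mt1 stood at 747 CPM in naive, 1618 and 1502 CPM with levetiracetam, and 782 and 777 CPM in PT 1 m. The PT 1 m LEV libraries were the highest of the 11 for both genes: elsewhere Mt2 reached 539 CPM, on the infarcted side at 7 d, and Mt1 842 CPM, in the same library. Mt3, the form made by neurons and astrocytes, was at 1702 CPM in naive and 2783 and 2672 CPM with levetiracetam, which is a log2 change of 0.71 and 0.65 and under the threshold.

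Transcription of metallothionein genes is known to be switched on through metal response elements in their promoters. The windows around their RefSeq starts (250 bases before to 50 after, GRCm38.p6) are shown because both genes moved together. Capitals mark matches on either strand to TGCNCNC, a loose form of the element's core in which N is any base. Not every match is therefore a strict core. Mt2 held 6 matches (chr8:94172368-94172667, + strand) and Mt1 held 3 (chr8:94178839-94179138, + strand).
Mt2: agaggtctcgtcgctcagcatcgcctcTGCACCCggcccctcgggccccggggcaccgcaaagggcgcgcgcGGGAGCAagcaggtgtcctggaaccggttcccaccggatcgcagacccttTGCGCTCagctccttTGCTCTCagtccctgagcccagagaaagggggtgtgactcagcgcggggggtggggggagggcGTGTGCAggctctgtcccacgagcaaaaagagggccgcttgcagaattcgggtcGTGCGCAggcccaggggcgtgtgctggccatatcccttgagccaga
Mt1: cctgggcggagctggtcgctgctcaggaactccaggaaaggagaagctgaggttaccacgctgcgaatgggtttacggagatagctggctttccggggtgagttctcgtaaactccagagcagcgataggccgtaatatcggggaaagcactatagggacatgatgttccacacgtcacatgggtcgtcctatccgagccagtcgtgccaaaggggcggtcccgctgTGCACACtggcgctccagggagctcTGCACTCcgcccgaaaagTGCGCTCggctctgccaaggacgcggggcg
Of 32851 RefSeq windows of this length, 7.1% held at least 3 such matches and 0.225% at least 6. A match is a description of the letters and no evidence of binding. No match lay in the 3 RefSeq windows of Cnr1.

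Npas4, an activity-induced transcription factor of neurons, stood at 3.07 CPM in naive (2.22 to 4.14), 7.17 CPM (5.92 to 8.62) and 7.6 CPM (6.5 to 8.83) with levetiracetam, and 2.76 and 2.94 CPM in PT 1 m. Its next highest libraries were those of 2 m after withdrawal, at 6.32 and 5.75 CPM. It was the gene nearest to the threshold among the higher genes, with a smaller change of 1.01. Fos, an immediate early gene, was at 2.5 CPM in naive and 5.10 and 5.50 CPM with levetiracetam (0.80 and 0.89), and at 3.21 and 3.08 CPM in PT 1 m. The neurotrophin gene Bdnf was at 26.9 CPM and then 35.9 and 41.6 CPM, and Gadd45b, a regulator of DNA demethylation, at 4.0 CPM and then 7.43 and 5.72 CPM. Arc, another activity-induced gene, was close to naive at 58.8 CPM and then 57 and 69.8 CPM. Of the 25 immediate early genes, 1 was beyond naive, 20 were above and 4 below naive on both sides, against 33.9% and 46.1% of all genes, with medians of 0.17 and 0.29, while in PT 1 m the medians were -0.07 and 0.00.

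The window of Npas4 (chr19:4989922-4990221, - strand) is shown because the core of the cAMP response element, through which neuronal activity is known to act, occurs in it. Matches to TGACG on either strand are in capitals.
Npas4: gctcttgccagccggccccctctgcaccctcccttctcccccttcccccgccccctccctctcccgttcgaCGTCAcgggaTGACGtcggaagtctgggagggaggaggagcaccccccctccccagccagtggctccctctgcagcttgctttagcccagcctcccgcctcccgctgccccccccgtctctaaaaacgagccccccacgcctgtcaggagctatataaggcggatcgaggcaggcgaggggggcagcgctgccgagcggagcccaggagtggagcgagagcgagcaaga
It held 2 matches, and 5.01% of the windows held at least 2. The windows of Cnr1 held none of these either.

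Of the 38 higher genes, Mir9-3 was the 1 that was also beyond naive in PT 1 m without the drug. It stood at 3.28 CPM in naive, 12.9 and 12.8 CPM in PT 1 m, 10.7 and 10.9 CPM in PT 1 m LEV, and 1.96 to 3.68 CPM in the 6 libraries at 7 d and 2 m. All 4 libraries at 1 m were thus above the other 7. Mir9-3 encodes miR-9, a neural microRNA, and lies on chromosome 7 from 79505264 to 79505353 within its host transcript Mir9-3hg on the same strand. The host was at 38.9 CPM in naive, 44.0 and 42.2 CPM in PT 1 m, and 35.6 and 40.5 CPM with levetiracetam, close to naive in each. CAGE does not count the mature microRNA, and the rule that divided starts between the hairpin and its host is not known here. The mature 5′ arm (RefSeq, GRCm38.p6, chr7:79505279-79505301, + strand) is shown for its seed, bases 2 to 8, in capitals.
miR-9-5p: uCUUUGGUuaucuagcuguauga
The table of RefSeq microRNAs gives this same mature sequence for Mir9-1 and Mir9-2.

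Gtf2a1, Fmc1 and Tpt1 were further protein-coding genes with well-covered levels. Gtf2a1, which encodes a subunit of the general transcription factor TFIIA, was at 40.6 CPM in naive, 116 and 99.8 CPM with levetiracetam, and 31.3 to 47.7 CPM in the other libraries. Fmc1, an assembly factor of the mitochondrial ATP synthase, was at 42.9 CPM, then 99.9 and 89.7 CPM, and 26.8 to 59.1 CPM elsewhere. Tpt1, the abundant translationally controlled tumour protein, was at 479 CPM, then 998 and 981 CPM. PT 1 m gave 480.02 and 513 CPM for Tpt1, and the 6 libraries at 7 d and 2 m gave 565 to 867 CPM, so naive was the lowest of the 11. S100a9, a calcium-binding protein of neutrophils, was at 1.57 CPM and then 4.34 and 4.56 CPM, and its partner S100a8 at 2.07 CPM and then 4.41 and 4.33 CPM. S100a9 did not set PT 1 m LEV apart, since it reached 4.80 CPM on the infarcted side at 7 d.

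**Figure D2:**
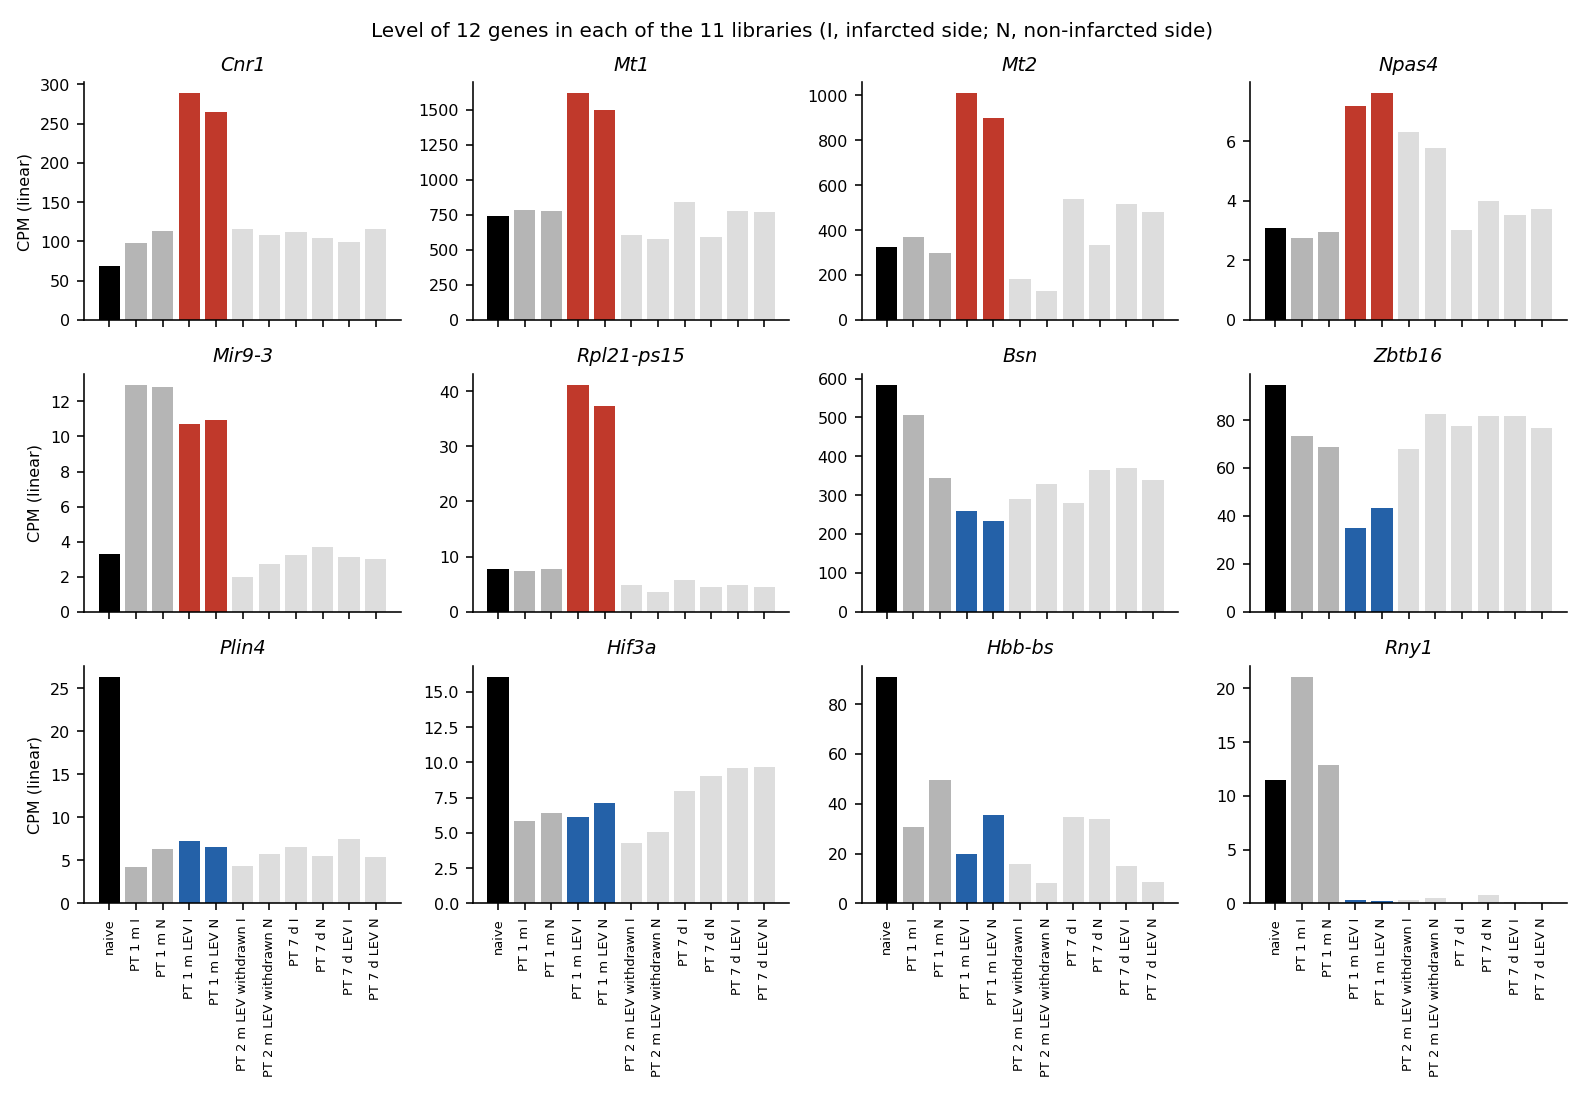
CPM (linear axis from 0) of 12 genes in each of the 11 libraries, with naive in black, PT 1 m in grey, PT 1 m LEV in red (higher than naive) or blue (lower) and the 7 d and 2 m libraries in light grey. Cnr1, Mt1, Mt2 and Rpl21-ps15 have their tallest bars in the PT 1 m LEV libraries, whereas Plin4, Hif3a and Hbb-bs have theirs in naive.

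Most of the other higher genes were short. The median exon length of the 38 was 522 bases, beside 4094 bases for all genes compared, and their median naive level was 3.07 CPM, beside 21.8 CPM. Pseudogenes made up 16 of the 38 (42.1%), beside 1.87% of all genes compared. Rpl21-ps15, a processed copy of a ribosomal protein gene on chromosome X, had the largest smaller change of the 38, at 2.12: it was at 7.78 CPM in naive, 41.1 and 37.3 CPM with levetiracetam, and 3.50 to 7.75 CPM in the other libraries. Rpl30-ps10 was at 3.0 CPM and then 13.3 and 13.7 CPM, and Rps12-ps4 at 3.07 CPM and then 13.0 and 9.97 CPM. Reads of such copies can belong to the parent gene, so their values are uncertain. The parent Rps12 was at 562 CPM in naive and 1096 and 1066 CPM with levetiracetam, Rpl39 at 381 CPM and then 824 and 735 CPM, and Rpl21 at 41.2 CPM and then 50.8 and 53.7 CPM. Of 33 ribosomal protein pseudogenes compared, 5 were beyond naive, while none of 82 ribosomal protein genes was, with medians of 0.22 and 0.23 for the latter and 0.14 and 0.17 in PT 1 m.

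Replication-dependent histone genes, which are read during DNA synthesis, gave 6 of the 38, counting the pseudogene H2ac5-ps. H4c9 was at 14.6 CPM in naive, 35.7 and 33.6 CPM with levetiracetam, and at most 18.4 CPM elsewhere. H3c2 was at 1.64 CPM and then 6.61 and 6.17 CPM, but reached 26.1 CPM at 7 d. H3c3 and H2ac5-ps have the same reads in every library and cannot be separated, as is true of H2bc15 with Gm44454 and of H2bc14 with Gm44357. Of the 50 histone genes compared, 5 were beyond naive, 44 were above naive on both sides and 2 below, with medians of 0.62 and 0.47, beside 0.20 and 0.17 in PT 1 m. Rmrp, the RNA of the RNase MRP ribozyme, is listed under 2 identifiers with the same reads and was at 0.928 CPM and then 5.41 and 4.07 CPM. Frmd8os, antisense to Frmd8, was at 3.21 CPM and then 16.9 and 10.5 CPM. The use of strand in counting is not stated, so its reads and those of Frmd8 (9.35 CPM, then 12.5 and 11.4 CPM) may not be told apart.

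Bsn encodes Bassoon, a scaffold of the presynaptic active zone, and was at 583 CPM in naive (570.4 to 596), 259 CPM (251 to 267) and 234 CPM (227 to 240.2) with levetiracetam, and 505 and 345 CPM in PT 1 m. Naive was the highest and the PT 1 m LEV libraries the lowest of the 11. The short loci Gm37230 and Gm37247 next to its start carried nearly the same counts, so these 3 lower genes may rest on 1 set of starts. Its relative Pclo, which encodes Piccolo, was at 291 CPM and then 219 and 206 CPM (-0.41 and -0.50). Git1, a scaffold of postsynaptic spines, was at 337 CPM in naive, 150.0 and 130.0 CPM with levetiracetam, 167 and 133 CPM in PT 1 m, and 60.5 to 74.5 CPM at 7 d and 2 m. It was thus lower in every photothrombosis library, with or without the drug. Mast2, a microtubule-associated kinase, was at 93.0 CPM, then 40.8 and 39.1 CPM, and at 78.1 and 59.9 CPM in PT 1 m, and Mknk2, a kinase of the initiation factor eIF4E, at 39.8 CPM, then 17.2 and 16.5 CPM, and 31.3 and 24.7 CPM.

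Genes induced by glucocorticoid hormone, the adrenal stress signal, gave 4 of the 25 lower genes outside the choroid plexus list. Plin4, a lipid droplet coat protein, was at 26.4 CPM in naive (23.7 to 29.2), 7.30 and 6.61 CPM with levetiracetam, 4.26 and 6.31 CPM in PT 1 m and 4.31 to 7.54 CPM at 7 d and 2 m. Cdkn1a, which encodes the cell cycle inhibitor p21, was at 14.4 CPM, then 5.35 and 6.08 CPM, beside 4.56 and 4.45 CPM in PT 1 m. Hif3a, a member of the hypoxia-inducible factor family, was at 16.1 CPM, then 6.10 and 7.15 CPM, beside 5.83 and 6.38 CPM. Naive was the highest of the 11 libraries for each of these 3 genes, though at 7 d and 2 m Cdkn1a ranged from 6.05 to 10.5 CPM and Hif3a from 4.25 to 9.66 CPM. Zbtb16, a zinc finger transcription factor, was different: 94.6 CPM in naive, 73.4 and 68.7 CPM in PT 1 m, and 34.9 and 43.3 CPM with levetiracetam, the 2 lowest of the 11. Tsc22d3, which encodes the glucocorticoid-induced leucine zipper, missed the threshold at 67.0 CPM and then 29.0 and 33.3 CPM (-1.18 and -0.99), with 39.6 and 40.5 CPM in PT 1 m.

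The whole list of glucocorticoid response genes and metallothioneins had 18 members compared. With levetiracetam 2 were beyond naive and higher (Mt1, Mt2), 4 were lower, and 8 were lower at 1.5-fold. Of the members, 13 were below naive on both sides and 3 above, with medians of -0.54 and -0.46. PT 1 m had nearly the same medians, -0.55 and -0.45, and 5 members lower, so the median of the list lay below naive with and without the drug. The summed level of the list differed: 3525 CPM in naive, 5862 and 5551 CPM with levetiracetam, and 3390 and 3252 CPM in PT 1 m. Metallothioneins held most of this sum in naive and with levetiracetam. Mt1, Mt2 and Mt3 were also the 3 members above naive on both sides. The higher sum with levetiracetam therefore does not describe the glucocorticoid response genes. Both sets of changes share the 1 naive library. Among members under the threshold, Sgk1, a kinase induced by glucocorticoid, was at 105 CPM in naive, 39.2 and 49.9 CPM in PT 1 m, and 60.2 and 64.4 CPM with levetiracetam. Fkbp5, a co-chaperone of the receptor, was at 65.7 CPM, 44.8 and 41.0 CPM, and 52.7 and 51.7 CPM in the same order.

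Haemoglobin genes were highest in naive. Hbb-bs, an adult beta-globin gene of red cells, was at 91.0 CPM in naive (86.05 to 96.1), 19.95 and 35.4 CPM with levetiracetam, 30.7 and 49.6 CPM in PT 1 m, and 8.07 to 34.8 CPM at 7 d and 2 m. Hbb-bt followed at 17.1 CPM, then 5.35 and 7.02 CPM. Both beta-globin genes were thus beyond naive with levetiracetam, and naive was above all 10 other libraries for each. The summed level of the 4 blood cell markers compared was 112 CPM in naive, 34.0 and 51.3 CPM with levetiracetam, and 11.9 to 64.4 CPM in the others. Hbb-bs made up most of the naive sum. Of the 4 markers, the 2 beta-globin genes were below naive on both sides, while the 2 others, S100a8 and S100a9, were above it. The part of blood left in the tissue in other genes was not tested. In whole tissue, fewer cells of a type and less RNA per cell cannot be told apart.

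The remaining lower genes were of mixed function. Rny1, the small Y RNA bound by Ro60, had the largest change: 11.5 CPM in naive (9.79 to 13.4), 21.1 and 12.8 CPM in PT 1 m, and 0.315 and 0.179 CPM with levetiracetam, from 5 and 4 reads. The 6 libraries at 7 d and 2 m had 0 to 0.81 CPM, so the 3 libraries of naive and PT 1 m held Rny1 and the other 8 had next to none. Whether the reads of Rny1, or those of Rmrp, came from capped RNA was not tested, so neither is read as a change in transcription. Dsp, the desmosomal protein desmoplakin that marks dentate granule cells, was at 7.07 CPM in naive, 2.52 and 1.92 CPM with levetiracetam, and 6.27 to 10.7 CPM in the 8 other libraries, with no overlap. It was the 1 lower gene of 11 on the granule cell list, of which 8 were below and 2 above naive on both sides, with medians of -0.04 and -0.27. Fzd4, a receptor for Wnt ligands and Norrin, was at 17.1 CPM, then 7.36 and 5.05 CPM, and 7.47 and 10.5 CPM in PT 1 m. Helz2, an interferon-inducible helicase, was at 5.14 CPM and then 1.13 and 1.88 CPM. Mir5125, which lies within Srrm2, was at 14.2 CPM and then 6.42 and 6.17 CPM, while Srrm2 was at 535 CPM and then 399.5 and 389.9 CPM.

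Drc7, a component of motile cilia, was at 10.4 CPM in naive, 4.47 and 2.5 CPM with levetiracetam, and 1.87 and 3.73 CPM in PT 1 m. Of the 13 genes on the list of ependyma and motile cilia, 11 were below and 1 above naive on both sides, against 46.1% and 33.9% of all genes, and none was beyond it, the summed level being 137 CPM in naive, 119 and 109 CPM with levetiracetam, and 108 and 111 CPM in PT 1 m. The lincRNA 2900040C04Rik, at 29.9 CPM in naive, 13.7 and 2.46 CPM with levetiracetam and 0.224 and 10.5 CPM in PT 1 m, had the order of libraries that the choroid plexus list has. Lmod1, an actin regulator of smooth muscle, was at 1.93 CPM and then 0.378 and 0.402 CPM, under 3 CPM throughout these libraries. On the list of pericytes, smooth muscle and meningeal fibroblasts, 8 of 18 genes were below naive on both sides, 2 were above and 8 were of opposite sign, with medians of -0.04 and -0.42. Its summed level was 2016 CPM in naive and 2578 and 1518 CPM with levetiracetam, and 1785 and 4391 CPM in PT 1 m. The part of these tissues in the lower genes was not tested.

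With levetiracetam no gene was brought to the naive level from at least 1 away. Of the 42 genes off naive in PT 1 m, 13 were also beyond naive with levetiracetam: Mir9-3 higher, 6 lower outside the choroid plexus list (Plin4, Cdkn1a, 2900040C04Rik, Drc7, Hif3a and Git1) and 6 lower on it. Of the 6 outside it, 2900040C04Rik and Drc7 had the order of libraries of that list. None of the 42 had both PT 1 m LEV libraries within 0.5 of naive, and 9 of the 41 lower had exactly 1. For 14 of the 41 lower genes, both PT 1 m LEV libraries were nearer to naive than both PT 1 m libraries. For the 23 lower genes outside the choroid plexus list the median change was -1.26 in PT 1 m and -0.93 with levetiracetam. Further genes of the 23 had the order of libraries of that list, among them D630024D03Rik and Cldn1. Cldn1 was at 6.28 CPM in naive, 1.57 and 2.51 CPM in PT 1 m, and 3.71 and 1.07 CPM with levetiracetam. The part of choroid plexus tissue in the median was not tested. The 23 genes were selected as far from naive in PT 1 m, and both medians share the naive library, so the second being nearer to naive is a description only.

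The nearest to the rule was Ube2q1, a ubiquitin-conjugating enzyme, at 158 CPM in naive, 67.6 and 66.9 CPM in PT 1 m, and 118 and 108 CPM with levetiracetam (-0.42 and -0.54). Mosmo, a negative regulator of Hedgehog signalling, was at 82.5 CPM, 36.6 and 33.7 CPM, and 61.1 and 53.4 CPM in the same order. Pabpn1, the nuclear poly(A)-binding protein, was at 435 CPM, 212 and 186 CPM, and 332 and 268 CPM. Clk2, a kinase of SR splicing factors, was at 88.0 CPM, 42.5 and 35.7 CPM, and 61.8 and 51.8 CPM. In each of these the PT 1 m LEV libraries lay between naive and PT 1 m without overlap. At 7 d and 2 m Ube2q1 was at 38.1 to 49.9 CPM and Mosmo at 16.2 to 21.2 CPM. Pabpn1 was at 107 to 145 CPM there and Clk2 at 13.1 to 25.5 CPM. All these levels were under those of PT 1 m, also in the 7 d libraries with levetiracetam. Dyrk2 (93.5 CPM, then 43.0 and 36.9, then 54.2 and 50.7 CPM) and Hipk1 (179 CPM, then 87.3 and 73.7, then 106 and 88.1 CPM), both kinases of the same family, kept more of the difference.

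**Figure D3:**
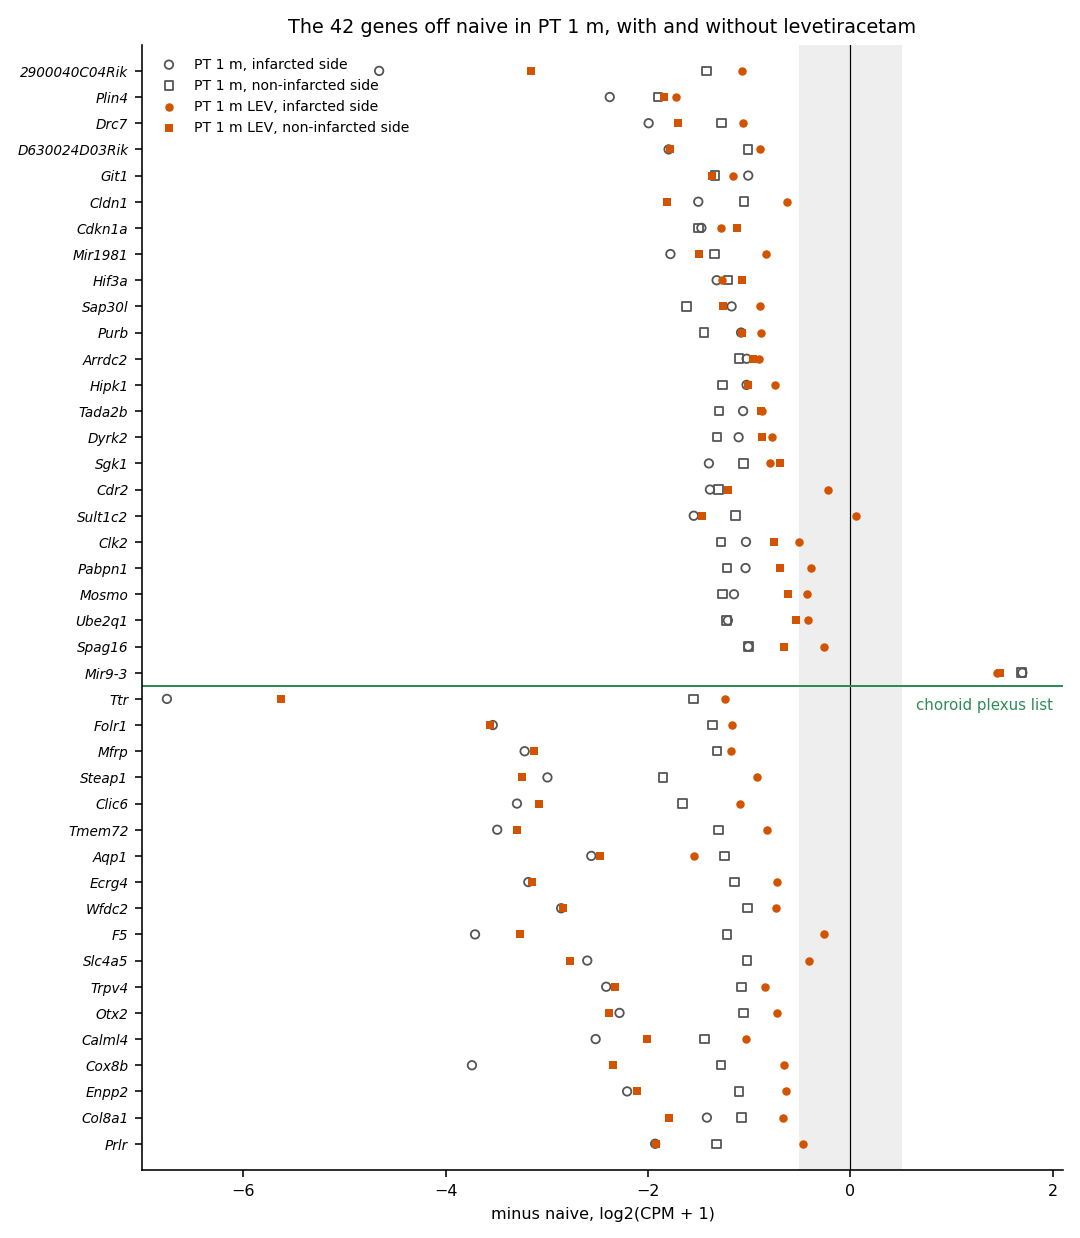
The 42 genes at least 1 away from naive in both PT 1 m libraries, with log2(CPM + 1) minus naive on the x axis for PT 1 m (open) and PT 1 m LEV (filled) by side; the grey band is within 0.5 of naive and the green line sets the 18 choroid plexus genes apart. No gene has both filled symbols in the band, and Ube2q1, Mosmo, Pabpn1 and Spag16 come nearest.

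A threshold of 1.5-fold in place of 2-fold did give genes at the naive level. In PT 1 m 39 genes were then higher (0.243%) and 189 lower (1.18%). Of these, 14 and 43 were within 0.5 of naive on both sides with levetiracetam, beside 84.5% of all genes compared. Narrowing the band to 0.25 left 1 and 15, and none of the lower ones was on the choroid plexus list at either width. Against these, 6 of the 39 and 77 of the 189 were beyond naive by 1.5-fold with levetiracetam as well. Srf, the transcription factor that drives activity-induced genes, was at 35.0 CPM in naive, 19.1 and 21.7 CPM in PT 1 m, and 36.4 and 36.8 CPM with levetiracetam. Hira, a histone chaperone, was at 46.6 CPM, 27.9 and 26.5 CPM, and 52.2 and 47.7 CPM, and Nploc4, a cofactor of the segregase p97, at 66.3 CPM, 37.6 and 33.6 CPM, and 70.8 and 64.2 CPM. At 7 d and 2 m Srf was at 15.8 to 23.7 CPM, Hira at 19.4 to 23.8 CPM and Nploc4 at 14.8 to 30.3 CPM. All were under naive there, also in the 7 d libraries with levetiracetam. The higher ones included the Notch target Hes5, at 19.2 CPM in naive, 36.3 and 32.4 CPM in PT 1 m, and 15 and 17.1 CPM with levetiracetam, and the interferon-induced Isg15, at 3.21, 6.13 and 7.6, and 4.41 and 2.59 CPM. These examples were chosen after their values were seen.

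The choroid plexus list had 33 genes compared, of which 32 were below naive in both PT 1 m LEV libraries and 7 were beyond it: Ttr, Folr1, Clic6, Kcnj13, Aqp1, Mfrp and Calml4. Ttr, the thyroid hormone carrier that the epithelium secretes, was at 4027 CPM in naive, 1709 and 80.7 CPM with levetiracetam (infarcted, then non-infarcted side), and 36.2 and 1372 CPM in PT 1 m. Folr1, a folate receptor, was at 21.9 CPM, then 9.13 and 0.938 CPM, and 0.971 and 7.89 CPM. Aqp1, a water channel, was at 5.78 CPM, then 1.32 and 0.223 CPM, and 0.149 and 1.87 CPM, and Kcnj13, a potassium channel, at 15.4 CPM, then 6.8 and 0.938 CPM, and 2.54 and 7.46 CPM. The sides were thus crossed: with levetiracetam the infarcted library held more of these RNAs, and without it the non-infarcted library did.

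Over the list the median change was -0.66 on the infarcted and -2.11 on the non-infarcted side with levetiracetam, and -2.22 and -1.02 in PT 1 m. Its summed level was 4861 CPM in naive, 2224 and 256 CPM with levetiracetam, 219 and 1808 CPM in PT 1 m, and 1731 to 5841 CPM at 7 d and 2 m. Between the PT 1 m LEV libraries, 54 genes were at least 1 higher on the infarcted side, 24 of them on this list, and none was at least 1 higher on the other side. Leaving the list out kept all 38 higher genes and 25 of the 32 lower. In 24 of those 25 the smaller change from naive exceeded the difference between the PT 1 m LEV libraries, 2900040C04Rik being the exception. The threshold favours this outcome, so it is a description only.

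**Figure D4:**
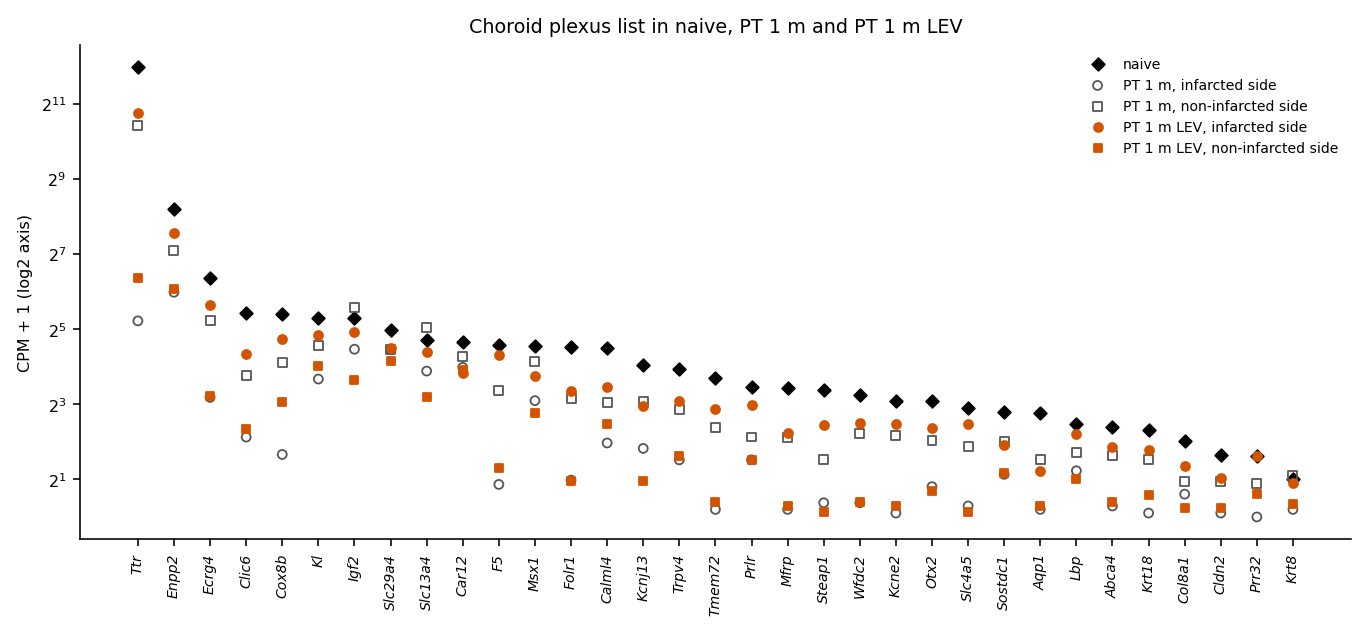
CPM + 1 on a log2 axis for the 33 choroid plexus genes in naive (black diamonds), PT 1 m (open) and PT 1 m LEV (filled), infarcted side as circles and non-infarcted side as squares. For most genes the filled squares and open circles lie lowest, as for Ttr at 80.7 and 36.2 CPM against 4027 CPM in naive.

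Sv2a, which encodes the protein that levetiracetam binds, was at 134 CPM in naive, 121 and 149.7 CPM with levetiracetam, and 156 and 139.9 CPM in PT 1 m, on either side of naive in the PT 1 m LEV libraries. Of the 19 genes for SV2 proteins and vesicle release none was beyond naive, 9 were above and 8 below it on both sides. Slc17a7, the main vesicular glutamate transporter of hippocampal pyramidal cells, differed most, at 936 CPM and then 1606 and 1603 CPM (0.78 on both sides), beside 781 and 771 CPM in PT 1 m. Of 13 GABA-A receptor subunits none was beyond naive, 9 were above and 2 below, with medians of 0.10 and 0.14, beside 0.08 and 0.08 in PT 1 m. Of 16 genes for GABA synthesis, transport, chloride and GABA-B receptors none was beyond naive, 11 were above and 5 below it on both sides. Kctd12, an auxiliary subunit of the GABA-B receptor, was at 72.2 CPM and then 129 and 119 CPM, and Gad2, which makes GABA, at 71.6 CPM and then 94.2 and 99.0 CPM. Of 15 AMPA, NMDA and kainate receptor subunits none was beyond naive, 5 were above and 8 below.

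**Figure D5:**
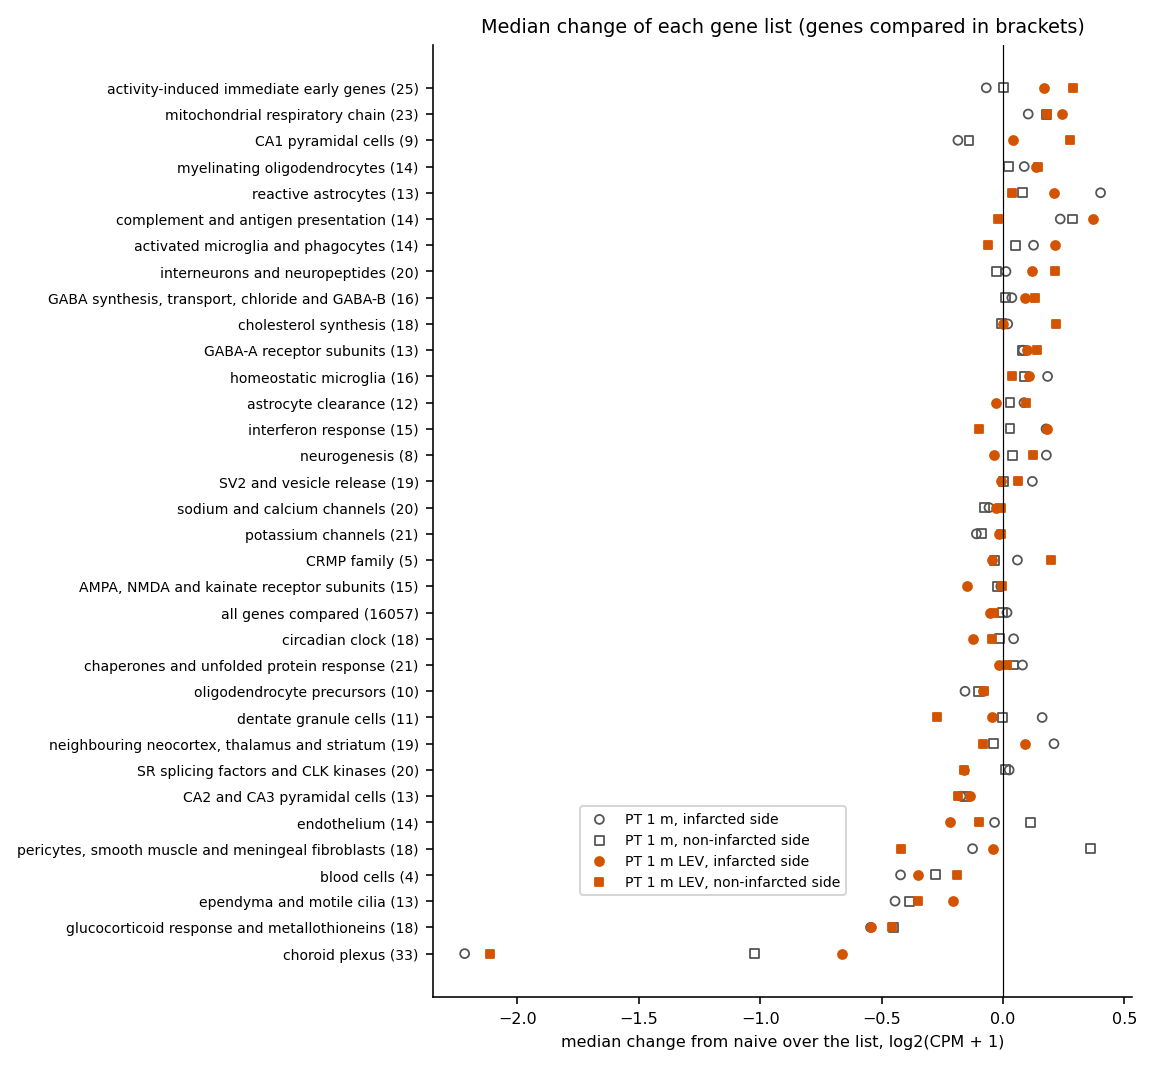
Median change from naive, in log2(CPM + 1), of each of 33 gene lists and of all genes compared, for PT 1 m (open) and PT 1 m LEV (filled) by side, with the number of genes compared in brackets. The choroid plexus list stands far to the left in all 4 libraries, and the immediate early genes are at 0.17 and 0.29 with levetiracetam against -0.07 and 0.00 without.

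Glial and inflammatory lists had no gene beyond naive. Gfap, the intermediate filament of astrocytes, was at 277 CPM in naive, 310 and 272 CPM with levetiracetam, and 405 and 282 CPM in PT 1 m. B2m, the light chain of class I antigen-presenting molecules, came nearest at 41.2 CPM and then 82.7 and 69.0 CPM (0.99 and 0.73). Homeostatic microglia had medians of 0.11 and 0.04, reactive astrocytes 0.21 and 0.04, and the interferon response 0.18 and -0.10. Mitochondrial respiratory chain genes were above naive on both sides for 18 of 23, against 33.9% of all genes, with medians of 0.24 and 0.18. In PT 1 m the medians of this list were 0.10 and 0.18, so it lay above naive without the drug too. Atp5e, a subunit of the ATP synthase, was at 371 CPM and then 754 and 697 CPM. SR splicing factors and CLK kinases were below naive on both sides for 14 of 20 and above for 4, against 46.1% and 33.9% of all genes, with medians of -0.16 and -0.16, and Srsf3 was at 111 CPM and then 53.6 and 71.2 CPM. Amigo2, an adhesion protein that marks CA2 pyramidal cells, was at 49.2 CPM, then 24.7 and 24.3 CPM (-0.97 and -0.99), and 37.3 and 30.3 CPM in PT 1 m. Rorb, a nuclear receptor of neighbouring neocortex, was at 14.1 CPM and then 28.3 and 28.9 CPM, but its list of 19 cortical, thalamic and striatal markers had 7 genes above and 9 below naive. Dpysl2, which encodes CRMP2, was at 125 CPM and then 199 and 212 CPM.

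Just inside the threshold of 1 for higher genes were Npas4 and Mt1 (1.01 each) and H2bc14 (1.02), and just outside Gm11478, H3c13 and Slc25a23 (0.99 each). For lower genes the smaller changes were 1.01 for Gm19439 and 1.03 for Tmem252 and Calml4 inside, and 0.99 for Xdh, Eps8l2 and Tsc22d3 outside. A fit across all 11 libraries, in which the difference between the sides of a condition stands for the spread, gave more genes: edgeR's quasi-likelihood test at a Benjamini-Hochberg adjusted p under 0.05 called 758 higher (4.72%) and 493 lower (3.07%), among them 30 of the 38 and 23 of the 32. Limma called 606 higher (3.77%) and 731 lower (4.55%), among them 29 and 22. Sides that share animals would make this spread too small and naive adds none, so these calls are given as counts only. Of the 70 genes, 13 higher and 4 lower ones bear only clone names, 10 higher ones share all their reads with another listed gene, and 1 higher and 3 lower ones stayed under 3 CPM in the libraries compared.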

How the data were processed

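Whole mouse hippocampus total RNA was made into random-primed, cap-trapped libraries, per the labels' protocols. The authors deposited CPM per gene for 22377 genes in 11 libraries. The build was GRCm38, and the tools named were HISAT2 2.0.5, BWA 0.7.17 and DESeq2 1.20.0, per the submitters' processing notes. Annotation, counting rule, strand use and duplicate treatment are not stated. The deposited CPM are steps of 1 read: 100% of values came out whole to 0.0001 of a read, which gave the library totals and the Poisson intervals; listed genes held 93.0% to 96.1% of reads.

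Genes with a mean of at least 1 CPM over the 11 libraries (16057) were compared as log2(CPM + 1). Identifiers were matched to GENCODE M21 (22335 matched without the version) for coordinates, type and exon length. Promoter windows and microRNAs are from RefSeq (GRCm38.p6). edgeR 4.0.16 on the recovered reads and limma 3.58.1 on log2(CPM + 1), in R 4.3.3 with 1 term per condition, were alternatives, as were TMM and DESeq2 1.42.0 median-ratio scaling. Both fits were run on simulated counts drawn independently for each library. Such counts cannot show the effect of sides that share animals.

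Named were up to 15 genes per direction with the largest smaller-of-both-sides change, outside clone names, shared symbols or reads, levels under 3 CPM and the choroid plexus list. Up to 12 per direction at the naive level, up to 6 per list, the choroid plexus list, Sv2a, Gfap, Dpysl2 and Hbb-bs were also named; others were chosen after their values were seen. The members and lists were chosen with earlier results of these data known. Some genes are not reported here.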

Additional observations from a re-analysis of the deposited data

Results flagged for a closer look

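Bloc1s2-ps, a processed pseudogene, was beyond naive in libraries that the comparison did not use. Its smallest change from naive in the 6 libraries at 7 d and 2 m was 1.32 in log2(CPM + 1), with levels of 6.65 to 10.1 CPM there, against 2.07 CPM in naive and 2.09 and 2.44 CPM in PT 1 m. The PT 1 m LEV libraries were at 6.73 and 6.17 CPM. The parent gene Bloc1s2 was at 55.7 CPM in naive and 49.7 and 53.8 CPM in PT 1 m LEV.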

How the results depend on the processing

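Genes beyond naive numbered 38 higher and 32 lower. A pseudocount of 5 left 7 and 11, all among those reported, and one of 0.5 gave 51 lower. A mean of at least 5 CPM left 22 higher. A change of 1.5-fold gave 230 and 304, and a log2 of at least 1.5 gave 5 and 3. Scaling by TMM gave 47 and 28 and by median ratios 44 and 30, and moved the median change of all genes by 0.04 and 0.03. edgeR gave 758 and 493, and limma 606 and 731. With 1 PT 1 m LEV library left out, higher genes numbered 49 to 66 and lower genes 53 to 122: the count of lower genes was 122 without the infarcted library, and 66 higher and 53 lower were counted without the non-infarcted one. The cause was not tested beyond the construction, since 1 library meets the rule more easily than 2. Leaving out the choroid plexus list, chosen after seeing the data, left 38 and 25.

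No gene was at the naive level as reported. At 1.5-fold 14 higher and 43 lower genes were, within 0.75 of naive 4 lower genes were, and a pseudocount of 0.5 or median-ratio scaling gave 1 lower gene, Ybx2. Leaving out 1 library gave 0 to 6 higher and 0 to 9 lower genes: without the PT 1 m infarcted library 6 higher and 4 lower, without the PT 1 m non-infarcted library 3 and 6, and without the PT 1 m LEV non-infarcted library 9 lower. Of 1284 values of 214 named genes under the alternatives, 1282 kept their sign; the exceptions were Sv2a and Gfap, each with 1 library left out. Median signs of 3 lists (potassium channels, sodium and calcium channels, CRMP family) changed with scaling. No paired analysis was possible because each group has 1 library, and the replicate number carries no pairing. With 1 naive library, any trait of that library enters every change.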
